A study of Mus musculus with 6 samples.

Results

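The acute response to focal ischemia was described by comparing the ipsilateral cerebral cortex at day 1 post-stroke with the sham control, gene by gene. The members are the genes with a value of at least 1 FPKM (fragment counts scaled to transcript length and library size) in either of these 2 libraries, and there were 11790 of them among the 15441 genes with a value in any of the 6 libraries of the series. Each library held the pooled RNA of 3 male C57/BL6J mice, so there was 1 library per group and no replicate. No difference given here could be set against a spread between animals, and no test was made.

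The stroke mice received Rose Bengal, a photosensitive dye, and cold light through the intact skull over the sensorimotor cortex, which closes the vessels under the light (photothrombosis), and the cortex was taken at day 1. The sham control mice were operated on in parallel but not illuminated, and their cortex was taken at day 7 after the operation. Time since the operation and anesthesia therefore differed between the groups along with the stroke, and an early response to the operation cannot be told apart from a response to ischemia. The whole ipsilateral cortex was used, so that infarct, border and distant tissue were mixed in 1 value. In such bulk tissue, fewer cells of a type and less RNA per cell cannot be told apart.

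When a cortical vessel closes, the cells of the core lose oxygen and glucose within minutes, and surviving neurons around it are depolarized repeatedly. Immediate early genes, many of which encode transcription factors, are switched on by neurons and glia within an hour of such a stimulus. Injured cells then release signals that make astrocytes, microglia and endothelial cells produce cytokines and chemokines, and blood neutrophils arrive as the first wave of leukocytes. Astrocytes become reactive, with intermediate filaments and secreted acute phase proteins, while stress hormones from the adrenal gland reach the brain as glucocorticoids.

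The files list events (transcript starts, transcript ends and splicing events) rather than genes, and the value of a gene was the largest of its summed starts, its summed ends and any single event. A gene without a listed event has no value, which is not the same as no expression. Genes of every brain, such as Tubb3 and Hspa8, had no value in any library, and neither had Jun, Junb, Jund, Hspa1a or Neurod6. The files give no depth per library, and the labels state an average of 33.6 M reads. As a check of the label, all 21 cortical neuron markers compared were listed in both libraries, of which 1 was higher and 2 were lower at day 1 by the call defined below. Slc17a7, the vesicular glutamate transporter of these neurons, was at 303 FPKM in sham and 299.8 at day 1. The transcription factor Tbr1 was at 17.1 and 18.5, and Cux2, of the upper layers, was at 15.3 and 13.4. The 4 Y-linked genes compared were listed in both libraries.

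Most genes had like values in both libraries. The median log2 ratio of day 1 over sham, computed after adding 0.1 FPKM to both values, was 0.01 over the 11790 genes, and 72.4% of them lay within 0.5 of 0. With a log2 ratio of at least 1 in either direction as the call, 602 genes were higher at day 1 (5.11% of those compared) and 528 were lower (4.48%). These shares are the background against which every count of a gene group below is to be read. Adding 0.1 makes the ratio understate the difference of low genes. Of the 602 higher genes, 125 were not listed in sham, and 120 of the 528 lower genes were not listed at day 1. No ratio of its own is given for such a gene, although it is counted and enters the medians of gene lists with its missing value taken as 0, so that a median that rests on such genes depends on the 0.1 FPKM added. Among the 11545 genes listed in both libraries, 477 were higher (4.13%) and 408 lower (3.53%).

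**Figure D1:**
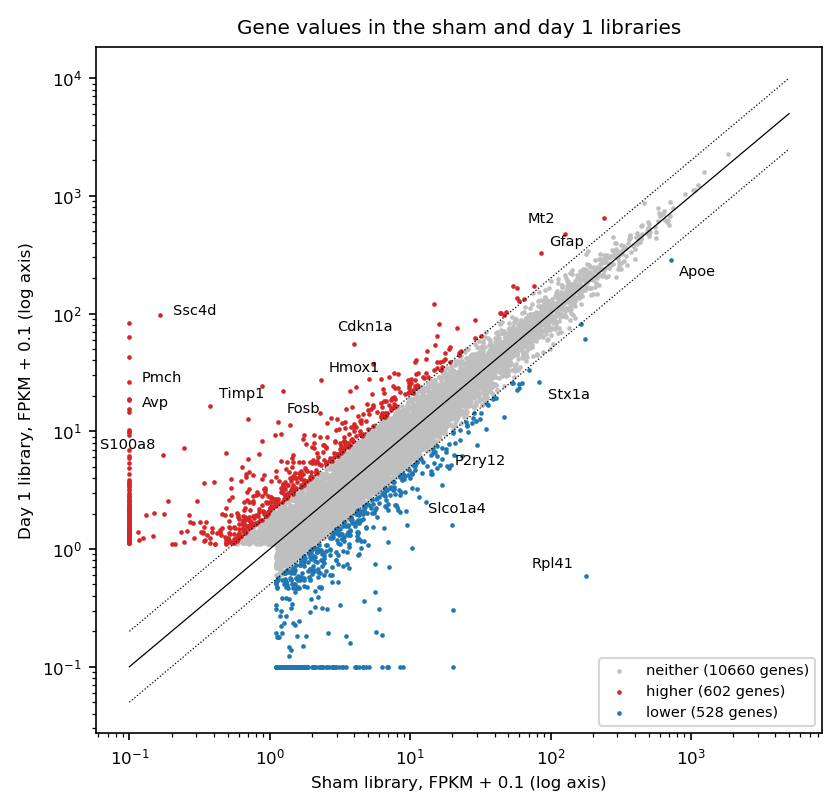
Gene values in FPKM + 0.1 in the sham library (horizontal log axis) and the day 1 library (vertical log axis), 1 point a gene, with the 602 higher genes in red, the 528 lower genes in blue and the other genes in grey. The solid line marks equal values and the dotted lines a ratio of 2.0 in either direction, and genes not listed in a library lie at 0.1, where the red column at the left holds the 125 higher genes not listed in sham.

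A gene value can also be built in other ways, so each call was repeated with the summed starts, the summed ends, the larger of both, the events inside the annotated span of the gene, and the events listed in both libraries. In all, 316 genes were higher (2.68%) and 239 lower (2.03%) under all 6 constructions that gave a value. Genes not listed in 1 of the libraries cannot be in that count by construction. These are called the genes higher or lower under every construction here. The constructions draw on the same events and are not independent of each other. For some genes, such as Timp1 and S100a8, all of them gave the same ratio, and the repeats add nothing to the first call. The plot of ratios from shared events shows where the constructions part.

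**Figure D2:**
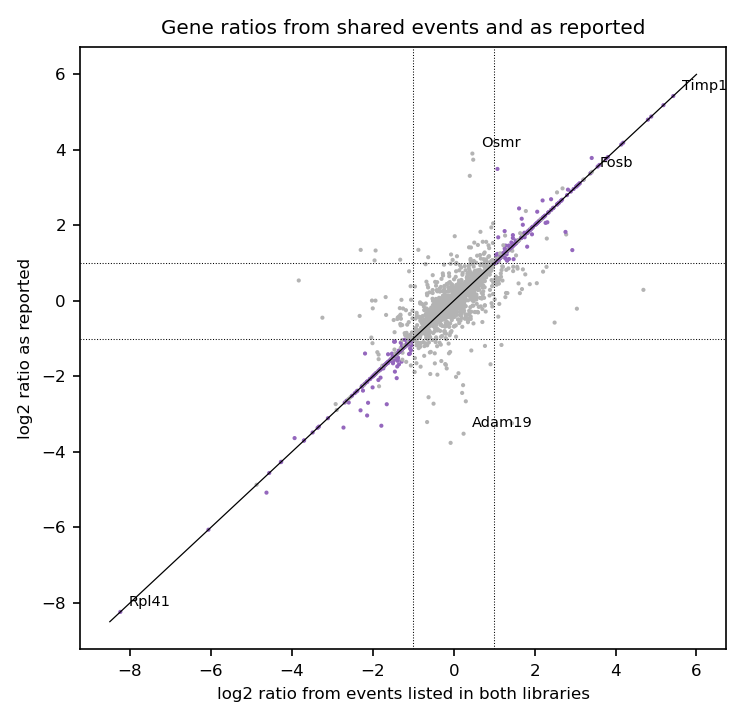
The log2 ratio of day 1 over sham as reported (vertical axis) against the ratio from events listed in both libraries (horizontal axis), 1 point a gene, with genes higher or lower under every construction in purple and dotted lines at -1 and 1. Timp1 and Fosb lie on the line of equality, while Osmr stands at 3.90 as reported and 0.46 from shared events.

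The gene with the largest ratio that held under every construction was Timp1, the tissue inhibitor of metalloproteinases secreted by reactive astrocytes, on chromosome X at 20870166 to 20874735 (mm10, plus strand). Its value was 0.278 FPKM in sham and 16.2 at day 1, a log2 ratio of 5.43. S100a8, a calcium-binding protein of neutrophils, was at 0.0729 and 6.18 (5.18). Sbno2, a transcriptional coregulator downstream of interleukin-10 and STAT3, was at 0.145 and 7.14 (4.88). All of them were near the bottom of the sham scale and well above 1 FPKM at day 1.

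Genes that were already measured above 1 FPKM in sham also stood out. Ctla2a, an inhibitor of cathepsin-type proteases, went from 1.15 FPKM in sham to 21.9 at day 1, a log2 ratio of 4.14. Cdkn1a, which encodes the cell cycle inhibitor p21, lies on chromosome 17 at 29090976 to 29100727 on the plus strand and was at 3.85 and 55.3 (3.81). Hmox1, the heme oxygenase that breaks down heme from damaged cells and blood, was at 2.20 and 27.0 (3.56). Tnfrsf12a, the receptor of the cytokine TWEAK, was at 1.29 and 11.3 (3.03). In absolute level the largest gains past the call were those of 3 abundant genes. Mt1 went from 241 to 653 FPKM, Mt2 from 126 to 475 and Gfap from 85.8 to 329.9.

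Immediate early genes were the first group examined. Of the 29 members compared, 13 were higher at day 1 (44.8%, against 5.11% of all genes) and none was lower, with a median log2 ratio of 0.86 against 0.01 over all genes. Of the 13, 10 were higher under every construction. Among AP-1 subunits, Fosb, a partner of Jun proteins on chromosome 7 at 19302696 to 19310051 (minus strand), was at 1.05 FPKM in sham and 11.9 at day 1, a log2 ratio of 3.39. Fos, the founding member of the family, was at 3.74 and 16.1 (2.08), and Fosl2 at 3.04 and 7.05 (1.19). Maff and Atf3, bZIP factors of stressed cells, were not listed in sham and were at 6.84 and 5.89 FPKM at day 1. Fosl1 was likewise not listed in sham and was at 1.22.

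The other immediate early genes divided by role. Nptx2, a secreted pentraxin that clusters AMPA receptors at synapses, was at 16.0 FPKM in sham and 81.2 at day 1 (log2 ratio 2.33). Csrnp1, a nuclear protein induced by axin, was at 2.19 and 8.82 (1.96). The phosphatase Dusp5, which inactivates ERK in the nucleus, was at 2.81 and 8.158 (1.5), and its relative Dusp4 at 2.32 and 5.65 (1.25). Other activity-dependent members were not past the call. Npas4 was at 1.85 and 3.52 (0.89), Bdnf at 6.70 and 12.2 (0.86), Egr3 at 15.3 and 21.97 (0.52) and Nr4a2 at 10.7 and 7.09 (-0.59).

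In the later libraries the list medians against the same sham were 0.31, 0.20, 0.24 and 0.46 in time order, from day 3 to day 28. Nptx2 stood between 12.8 and 17.2 FPKM in those libraries, and Fosb between 1.20 and 2.37, so that day 1 was the only library of the 6 in which either was past the call apart from Fosb at day 28 (log2 ratio 1.10). Fos was different and was at 8.44, 8.79, 7.09 and 13.9 FPKM at days 3, 7, 14 and 28.

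Cytokine signaling was represented by the interleukin-6 and STAT3 axis and by the interleukin-1, TNF and NF-kB pathway. In the first, 8 of 18 members compared were higher and none lower (median log2 ratio 0.90), and 4 of the 8 were higher under every construction. The median was 1.601 with summed ends and 0.58 with a filter at 5 FPKM. Stat3 itself, the transcription factor at its center, was at 6.95 FPKM in sham and 16.7 at day 1 (1.25). The kinase Pim1, a STAT target, was at 0.919 and 3.72 (1.91), and Pim3 at 9.76 and 24.1 (1.30). Osmr, the oncostatin M receptor, was at 0.0306 and 1.85, a log2 ratio of 3.90 that became 0.46 with the events listed in both libraries. Bcl3, a nuclear IkB protein, was not listed in sham and was at 1.90 FPKM at day 1.

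In the NF-kB pathway 13 of 25 members were higher and none lower (median 1.04), 9 of them under every construction. The list medians at days 3, 7, 14 and 28 were 0.83, 0.92, 1.09 and 0.17. Nfkbia, the inhibitor IkB-alpha that NF-kB itself induces, was at 6.95 FPKM in sham and 28.9 at day 1 (2.04), and Nfkbiz at 0.426 and 3.22 (2.66). Ptgs2, the inducible cyclooxygenase, was at 1.89 and 7.26 (1.88). The receptors Tnfrsf1a, of TNF, and Tlr2, of bacterial lipoproteins, were at 4.33 and 12.5 (1.51) and at 0.541 and 1.66 (1.46). Il1b, the cytokine interleukin-1-beta, and its natural antagonist Il1rn were not listed in sham and were at 1.16 and 1.12 FPKM at day 1. The subunit Rela was at 6.03 and 10.3 (0.77), short of the call.

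Chemokines draw leukocytes into tissue, and 11 of the 18 compared were higher at day 1, with none lower (median 1.38). Of the 11, 6 were not listed in sham and 5 were higher under every construction. The median was 0.63 over the 12 genes listed in both libraries, 0.36 with a filter at 5 FPKM and 2.10 with summed starts. Ccl12, a monocyte chemokine, was at 0.602 FPKM in sham and 12.7 at day 1 (4.19). The neutrophil chemokine Cxcl1 was at 0.781 and 2.72 (1.68), and its neighbor in function Cxcl2 was not listed in sham and was at 1.97. In the values used here both were lower again afterwards. Cxcl2 was at 0.222 FPKM at day 3 and 0.150 at day 14 and not listed at days 7 and 28. Cxcl1 was at most 0.751 in the later libraries. These are low values of 1 library each. The study, from RNA-seq and real-time PCR, named both among genes induced biphasically, with an acute and a sub-acute peak. The list as a whole did not follow the values of Cxcl1 and Cxcl2 given here, for its medians were 1.65, 1.65, 1.76 and 0.01 at days 3, 7, 14 and 28. Chemokines of the resting brain were not past the call. Cx3cl1, the neuronal ligand of microglia, was at 150.0 and 129.8 (-0.21), and Cxcl12 at 3.43 and 2.05 (-0.71).

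Neutrophil markers were listed for only 7 of 20 members at 1 FPKM or more, and 5 of the 7 were higher, 1 of them, S100a8, under every construction. Their median of 3.85 is that of a gene not listed in sham and moved to 1.47 with 1 FPKM added, to 6.22 with 0.01 added and to 2.27 over the 4 genes listed in both libraries. From events listed in both libraries it was 0.48, the value of Hdc, whose ratio was 3.74 as reported. Over the 2 genes of at least 1 FPKM by those events it was 2.63. S100a9, the partner of S100a8, was not listed in sham and was at 10.1 FPKM at day 1, and Retnlg was not listed in sham and was at 1.34. Csf3r, the granulocyte growth factor receptor, was at 1.30 and 1.37 (0.07), and the defining markers Ly6g, Mpo and Elane had no value in any library. The summed FPKM of the 7 members was 1.97 in sham and 37.5 at day 1. Lcn2, which astrocytes also make, was 1 of the 7, and was not listed in sham and at 15.5 FPKM at day 1. These markers were not particular to day 1, for the list medians were 1.56, 2.06, 3.76 and 0 at days 3, 7, 14 and 28. At day 14 S100a8 was at 3.84 FPKM, S100a9 at 5.32 and Lcn2 at 26.6.

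Of 11 monocyte and macrophage markers, 6 were higher and none lower (median 1.69), 4 of them under every construction. The median was 0.89 over the 9 genes listed in both libraries and 0.80 with 1 FPKM added. Lgals3, a galectin of phagocytes, was at 0.386 FPKM in sham and 6.48 at day 1 (3.76), and Spp1, the secreted protein osteopontin, at 7.42 and 24.3 (1.69). Day 1 was an early point for these genes, for Lgals3 was at 24.4, 36.7 and 22.4 FPKM at days 3, 7 and 14, and Spp1 at 323, 783 and 151. Arg1, arginase of alternatively activated macrophages, was not listed in sham, was at 1.51 FPKM at day 1 and stood at 12.5 at day 3. Of 18 lymphocyte markers only Cd4 was compared, at 2.56 and 1.83 (-0.46).

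Of 13 homeostatic microglial genes compared, none was higher, 3 were lower (23.1%, against 4.48% of all genes) and 10 were not past the call, with a median log2 ratio of -0.15. Only P2ry12 was lower under every construction. P2ry12, the purine receptor by which resting microglia sense ATP, lies on chromosome 3 at 59216272 to 59262871 on the minus strand. It was at 18.0 FPKM in sham and 7.01 at day 1 (-1.35), and at 21.7, 17.7, 13.3 and 15.6 at days 3, 7, 14 and 28. Gpr34, a lysophospholipid receptor, was at 7.93 and 2.18 (-1.82). The lineage receptor Csf1r was at 23.9 and 21.6 (-0.15), so that the members of this list were not alike. Selplg was at 1.63 in sham and not listed at day 1.

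Reactive astrocyte genes had the highest share of higher genes among the lists with over 20 genes compared. Of 27 compared, 20 were higher at day 1 (74.1%) and none lower, with a median log2 ratio of 2.20, or 1.83 over the 22 listed in both libraries. Of the 20, 12 were higher under every construction. The list was not particular to day 1, for its medians were 2.38, 2.22, 2.32 and 0.50 at days 3, 7, 14 and 28. The intermediate filament genes led in level. Gfap was at 85.8 FPKM in sham and 329.9 at day 1 (1.94), Vim at 15.5 and 64.2 (2.04), and Nes, which marks progenitors and reactive astrocytes, at 1.27 and 4.42 (1.73). Serpina3n, a secreted serine protease inhibitor, was at 5.30 and 37.5 (2.80). Cd44, the hyaluronan receptor, was at 0.582 and 4.01 (2.59), and Ptx3, a soluble pattern recognition molecule, was not listed in sham and was at 9.83.

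By contrast none of 21 homeostatic astrocyte genes was past the call in either direction (median -0.06). The glutamate transporter Slc1a2 was at 199.9 FPKM in sham and 147.7 at day 1 (-0.44), the water channel Aqp4 at 27.0 and 26.0, and glutamine synthetase, Glul, at 485 and 507. Within the reactive list, Serping1, a complement inhibitor, was at 4.12 and 5.23 (0.34), and Psmb8, an immunoproteasome subunit, at 1.39 and 2.10 (0.56). Gfap and Vim had higher values at day 3 (698 and 167 FPKM) than at day 1, whereas Ptx3 was at 1.92 FPKM at day 3 and then at 0.942 and 1.01 on days 7 and 14.

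**Figure D3:**
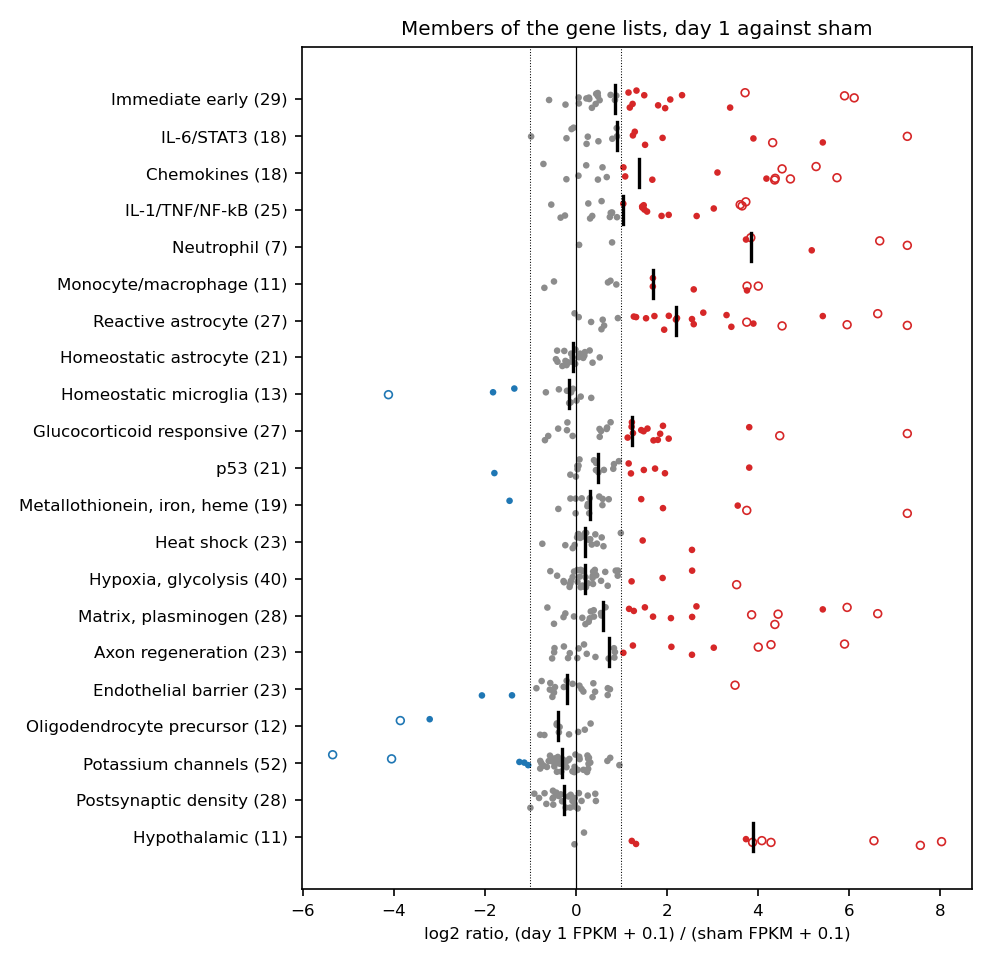
The log2 ratio of day 1 over sham (horizontal axis) for each compared member of 21 gene lists (rows, with the number compared in brackets), with higher members in red, lower in blue and the rest in grey. Open circles are genes not listed in 1 of the 2 libraries, whose position depends on the 0.1 FPKM added, black bars are list medians, and the reactive astrocyte row has its median at 2.20 while the homeostatic astrocyte row has all 21 points between the dotted lines at -1 and 1.

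Genes that glucocorticoids induce formed another group that stood apart at day 1. Of 27 compared, 15 were higher (55.6%) and none lower, with a median log2 ratio of 1.23, or 0.68 with summed ends. Of the 15, 11 were higher under every construction. Sgk1, a kinase that regulates ion channels, was at 15.02 FPKM in sham and 54.5 at day 1 (1.85). Fkbp5, the cochaperone that restrains the glucocorticoid receptor, was at 7.72 and 23.2 (1.57), and Tsc22d3, also called GILZ, at 16.3 and 38.3 (1.23). Errfi1, an inhibitor of the EGF receptor, was at 6.41 and 21.2 (1.71), and Plin4, a lipid droplet protein, was not listed in sham and was at 2.13. The receptor itself, Nr3c1, was at 15.4 and 9.59 (-0.68).

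Of the 15 higher genes, 8 are also members of other lists used here, namely Lcn2, Cdkn1a, Nfkbia, Mt1, Mt2, Ddit4, Per1 and Angptl4, and the list is thus no measure of glucocorticoid action alone. Its medians were 0.24, 0.30, 0.22 and 0.42 at days 3, 7, 14 and 28. Sgk1 and Fkbp5 were high in 2 libraries, since at day 28 they were at 52.8 and 15.9 FPKM, against 19.3 and 9.08 at day 14. Per1, which is both a glucocorticoid target and a clock gene, was at 9.63 FPKM in sham and 27.2 at day 1, and its values on days 14 and 28 were 11.3 and 19.2.

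The hour at which tissue was taken is not given in the sources used here, so clock genes were read beside Per1. Of 20 compared, 2 were higher, Per1 and Ciart, and the median was -0.06. Ciart, a repressor of the clock, was at 6.69 FPKM in sham and 14.3 at day 1 (1.08). Nr1d1 was at 17.4 and 32.2 (0.88), Dbp at 62.3 and 42.5 (-0.55) and Clock at 8.10 and 4.08 (-0.97). Their part in the values of Per1 and of the glucocorticoid list was not tested.

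**Figure D4:**
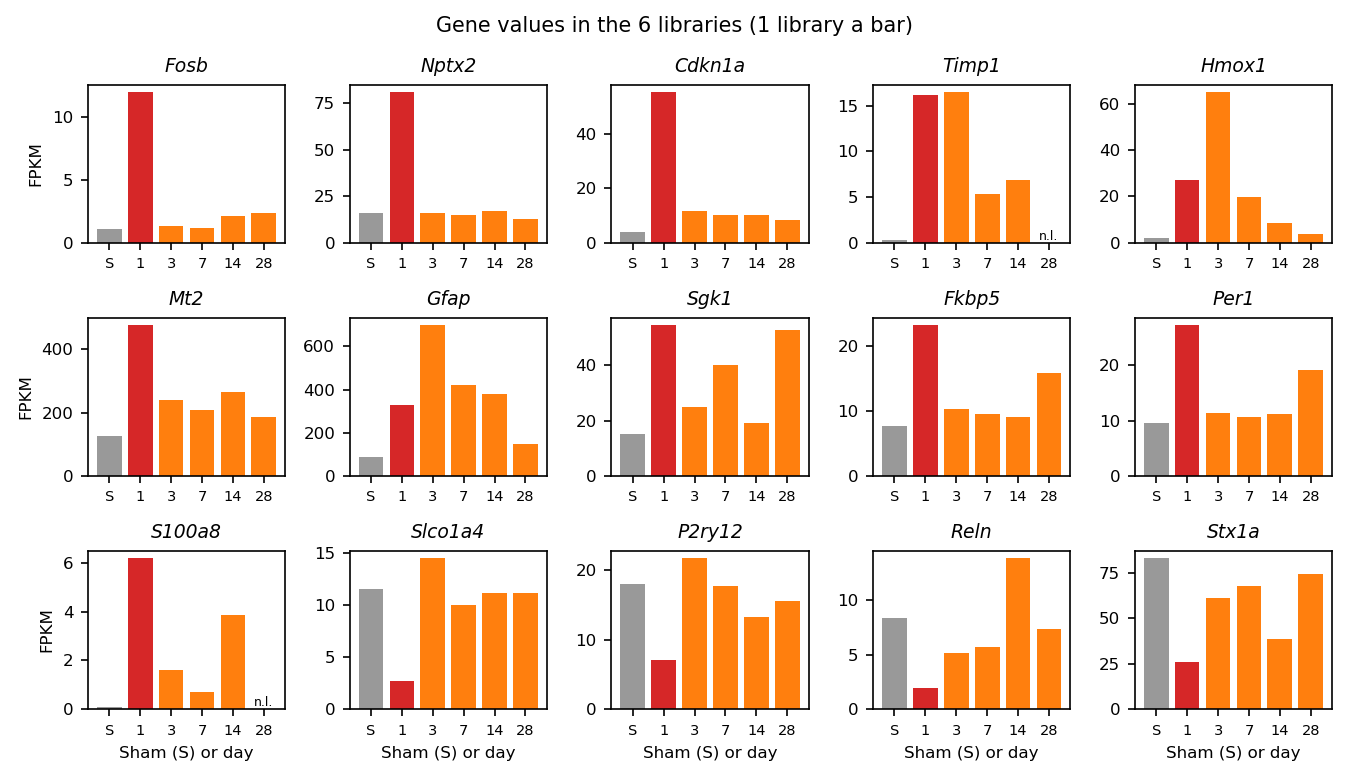
The value in FPKM (vertical axis, from 0, its scale set for each gene) of 15 genes in the sham library (S, grey), the day 1 library (red) and the libraries of days 3, 7, 14 and 28 (orange), where each bar is 1 library and n.l. marks a gene not listed. Fosb, Nptx2 and Cdkn1a have their high bar at day 1, Sgk1, Fkbp5 and Per1 have high bars at days 1 and 28, and Slco1a4 and P2ry12 have their lowest bar at day 1.

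Metallothioneins bind zinc and copper and are induced by metals, glucocorticoids and cytokines. Their upstream sequences are shown because Mt1 and Mt2 were higher at day 1 while Mt3, the brain metallothionein on the same stretch of chromosome 8, was not. Mt2 was at 126 FPKM in sham and 475 at day 1 (1.92), Mt1 at 241 and 653 (1.44), and Mt3 at 364 and 434 (0.26). The 250 bases before the start site, from RefSeq on GRCm38.p6 and all on the plus strand, are chr8:94172368-94172617 for Mt2, chr8:94178839-94179088 for Mt1 and chr8:94152357-94152606 for Mt3. Capitals mark the letters TGCNCNC of the metal response motif on either strand.
Mt2: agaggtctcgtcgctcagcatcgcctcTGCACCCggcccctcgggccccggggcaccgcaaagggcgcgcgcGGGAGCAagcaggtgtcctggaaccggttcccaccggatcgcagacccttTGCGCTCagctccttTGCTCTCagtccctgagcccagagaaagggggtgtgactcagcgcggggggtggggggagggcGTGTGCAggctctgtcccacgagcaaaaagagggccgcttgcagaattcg
Mt1: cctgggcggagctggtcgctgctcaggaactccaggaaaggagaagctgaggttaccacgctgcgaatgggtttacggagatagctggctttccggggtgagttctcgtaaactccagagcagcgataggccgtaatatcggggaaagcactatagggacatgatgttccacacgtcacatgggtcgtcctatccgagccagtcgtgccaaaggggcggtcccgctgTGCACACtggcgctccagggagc
Mt3: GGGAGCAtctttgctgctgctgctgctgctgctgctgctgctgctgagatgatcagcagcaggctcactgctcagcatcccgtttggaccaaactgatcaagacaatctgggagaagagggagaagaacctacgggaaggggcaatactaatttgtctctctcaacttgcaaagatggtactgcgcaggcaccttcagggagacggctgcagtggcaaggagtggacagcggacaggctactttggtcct

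The motif stood 5 times in the upstream bases of Mt2 and once each in those of Mt1 and Mt3. In the windows that also take in 50 bases after the start site, it stood 6, 3 and 3 times in Mt2, Mt1 and Mt3. It is a short motif, found in 52.3% of all 20595 promoter windows (250 bases before to 50 after a start site), and a match is a description, not a site of binding. Over the windows of the genes compared the share was 60.9%. A glucocorticoid response motif (GNACA and TGTNC with any 3 bases between them), added after the values were seen, is in the Mt1 window and in 0.442% of all windows (0.22% of those of genes compared). Of the 27 glucocorticoid-responsive genes compared, 22 had a window, and 2 of these held that motif, Mt1 and Map3k6. Map3k6, a stress kinase, was at 1.86 FPKM in sham and 1.19 at day 1 (-0.61).

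Other genes of iron and heme handling were mixed. Besides Hmox1, the exporter of iron from cells, Slc40a1, was lower, at 2.35 FPKM in sham and 0.792 at day 1 (-1.46). Fth1, the ferritin heavy chain, was among the most abundant genes, at 1849 and 2285 (0.31). Steap4, a metalloreductase, was not listed in sham and was at 1.25. The whole list also holds Mt1, Mt2 and Mt3. Of its 19 members compared, 5 were higher, Mt1 and Mt2 among them, and 1 lower (median 0.31). Hmox1 was higher still at day 3, at 65.2 FPKM.

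The 250 bases before the RefSeq start site of 2 reactive astrocyte genes are shown because the windows of this list held STAT and AP-1 motifs. Of 27 members compared, 23 had a window, of which 5 (21.7%) held the letters TTCNNNGAA of the STAT motif, against 8.07% of all windows. The same number, 5 (21.7%), held the AP-1 letters TGANTCA, against 7.39%. Over the windows of the genes compared the shares were 6.25% for STAT and 4.31% for AP-1. Emp1, a membrane protein of the PMP22 family, was at 1.10 FPKM in sham and 5.48 at day 1 (2.22), and Tgm1, a transglutaminase, was not listed in sham and was at 6.13. Capitals mark the STAT letters, in chr6:135362681-135362930 (plus strand) for Emp1 and chr14:55713493-55713742 (minus strand) for Tgm1, both on GRCm38.p6.
Emp1: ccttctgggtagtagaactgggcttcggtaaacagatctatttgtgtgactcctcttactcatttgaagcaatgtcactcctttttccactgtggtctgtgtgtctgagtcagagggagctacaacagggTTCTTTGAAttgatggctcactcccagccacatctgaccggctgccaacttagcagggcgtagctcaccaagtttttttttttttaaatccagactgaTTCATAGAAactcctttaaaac
Tgm1: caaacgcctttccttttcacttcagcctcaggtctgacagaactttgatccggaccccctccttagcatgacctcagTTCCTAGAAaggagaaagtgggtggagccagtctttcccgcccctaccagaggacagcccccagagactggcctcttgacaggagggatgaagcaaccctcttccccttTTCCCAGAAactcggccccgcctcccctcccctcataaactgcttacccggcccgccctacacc

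The STAT motif stood 2 times in each. Gfap, Psmb8 and Steap4 also held it, and of these Psmb8 was not past the call. The start site used lay 386 bases from the annotated start of the gene for Emp1 and 434 for Tgm1. For Tgm1 the bases shown lie inside the annotated gene (55700009 to 55713926, minus strand). Both of its matches are thus downstream of its annotated start. The AP-1 motif was in the windows of Cp, Cxcl10, Emp1, Gbp2 and Osmr. Cp, the copper protein ceruloplasmin, was at 4.65 FPKM in sham and 7.06 at day 1 (0.59), and Gbp2, a guanylate-binding protein, at 0.662 and 1.81 (1.32).

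Responses to lack of oxygen and to unfolded protein were smaller than those above. Of 40 genes of hypoxia and glycolysis, 4 were higher and none lower, and the median was 0.20. Ddit4, an inhibitor of the growth kinase mTORC1, was at 16.9 FPKM in sham and 39.7 at day 1 (1.23), and Adm, the vasodilator adrenomedullin, at 0.706 and 2.92 (1.91). The glucose transporter Slc2a1 was at 15.6 and 25.4 (0.70). Glycolytic enzymes were nearer to 0, with Pgk1 at 191 and 221 (0.21) and Pgam1 at 152 and 169 (0.16).

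The letters ACGTG of the hypoxia motif, which also lie inside the E-box CACGTG, were in the windows of 18 of the 34 members with a window (52.9%), against 20.5% of all windows. Over the windows of the genes compared the share was 25.9%. Ddit4 and Pgk1 are shown because both hold the letters upstream while only Ddit4 was past the call. Capitals mark them in chr10:59951771-59952020 (minus strand) for Ddit4 and chrX:106186850-106187099 (plus strand) for Pgk1, on GRCm38.p6.
Ddit4: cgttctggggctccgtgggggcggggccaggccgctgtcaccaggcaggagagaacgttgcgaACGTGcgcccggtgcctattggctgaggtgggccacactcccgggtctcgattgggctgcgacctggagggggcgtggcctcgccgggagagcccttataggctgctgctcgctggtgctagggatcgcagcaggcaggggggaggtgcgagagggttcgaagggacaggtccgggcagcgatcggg
Pgk1: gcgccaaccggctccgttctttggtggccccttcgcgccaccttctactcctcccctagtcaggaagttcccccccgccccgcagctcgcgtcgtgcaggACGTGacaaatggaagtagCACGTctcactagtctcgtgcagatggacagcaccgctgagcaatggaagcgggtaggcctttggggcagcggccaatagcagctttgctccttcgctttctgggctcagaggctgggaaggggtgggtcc

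Among 23 cytosolic heat shock genes compared, 2 were higher and none lower (median 0.20). Hspb1, a small heat shock protein of reactive astrocytes and injured neurons, was at 3.99 FPKM in sham and 23.9 at day 1 (2.55), and Bag3, a cochaperone of autophagy, at 2.29 and 6.51 (1.47). Dnajb1, an Hsp70 cochaperone, was at 13.5 and 20.7 (0.61) and Hsph1, an Hsp110 protein, at 58.7 and 80.9 (0.46). A heat shock element (GAA, TTC and GAA, or TTC, GAA and TTC, with any 2 bases between neighbors) was in 4 of the 19 windows available (21.1%), against 0.539% of all windows (0.385% of those of genes compared). The 4 were Chordc1, Dnajb6, Hspe1 and Hsph1, and none of these was past the call. The windows of the immediate early list covered 22 of 29 members (75.9%) and those of the higher genes 453 of 602 (75.2%), too few for a share to be given. Those of all genes compared covered 77.1%, and their shares are given only as a second background.

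The unfolded protein response had 3 of 21 members higher and none lower (median 0.26). Hspa5, the chaperone BiP of the endoplasmic reticulum, was at 64.4 FPKM in sham and 133 at day 1 (1.04), and Pdia6, a disulfide isomerase, at 12.8 and 41.3 (1.68). Manf, a secreted protein of the same response, was at 13.2 and 7.43 (-0.82). In the ATF4 branch 4 of 20 were higher (median 0.32), including Ppp1r15a, which restarts translation, at 3.81 and 10.9 (1.49). Antioxidant genes under NRF2 had only Hmox1 past the call among 25 (median 0.22). The subunit Gclc, of glutathione synthesis, was at 10.3 and 15.7 (0.61).

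Targets of p53 and DNA damage genes had 6 of 21 higher and 1 lower (median 0.50). Besides Cdkn1a, Gadd45b, a stress sensor, was at 5.23 FPKM in sham and 20.6 at day 1 (1.96), and Fas, the death receptor, at 0.565 and 2.12 (1.74). Mdm2, the ligase that degrades p53, was at 12.2 and 23.6 (0.95), just short of the call. Cdkn1a stood between 8.21 and 11.7 FPKM in all 4 later libraries, above its sham value and well under its value at day 1.

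Matrix and plasminogen genes had 13 of 28 members higher and none lower (median 0.61, or 0.40 over the 23 listed in both libraries), 8 of them under every construction. The list medians at days 3, 7, 14 and 28 were 1.65, 1.59, 0.88 and -0.01. Ccn1, a matricellular protein, was at 2.19 FPKM in sham and 14.3 at day 1 (2.65). The urokinase receptor Plaur was not listed in sham and was at 2.08 FPKM at day 1. Thbs1, an inhibitor of vessel growth, was at 0.656 and 2.35 (1.70). Fibrillar and basement collagens did not pass the call, with Col3a1 at 1.04 and 0.639 (-0.62) and Col4a1 at 3.92 and 6.21 (0.65).

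Among genes that mark the blood-brain barrier, 1 of 23 was higher and 2 were lower (median -0.20). Slco1a4, an organic anion transporter of brain endothelium on chromosome 6 at 141805440 to 141856199 (minus strand), was at 11.5 FPKM in sham and 2.68 at day 1, a log2 ratio of -2.06. It was between 10.02 and 14.5 in the later libraries, so that day 1 was the lowest of the 6. Abcg2, a drug efflux pump, was at 7.72 and 2.86 (-1.40). The general endothelial markers Pecam1, at 3.33 and 3.64, and Cdh5, at 2.16 and 2.85, were not lower. The fatty acid transporter Mfsd2a was at 9.005 and 15.2 (0.75).

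The angiopoietin receptors were lower, Tie1 at 1.56 FPKM in sham and 0.474 at day 1 (-1.54) and Tek at 1.86 and 0.827 (-1.08). Icam1, the adhesion molecule for leukocytes, was at 0.905 and 2.66 (1.46), and Plvap, a protein of leaky vessels, at 1.22 and 3.42 (1.41). In the endothelial activation list as a whole, 3 of 15 were higher and 2 lower (median 0.00). Pericyte genes had 1 of 13 higher and none lower (median -0.18).

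Genes of regeneration and growth were also listed. Of 23 axon regeneration genes compared, 8 were higher and none lower (median 0.72, or 0.34 over the 20 listed in both libraries), 4 of them under every construction, although Atf3, Hspb1, Stat3 and Tnfrsf12a are members of other lists above. Tubb6, a beta-tubulin, was at 1.72 FPKM in sham and 7.72 at day 1 (2.10). In the mitotic list 4 of 18 were higher, among them the replication licensing factors Mcm5, at 0.983 and 2.43 (1.22), and Mcm6, at 1.25 and 2.81 (1.10). The interferon list had 4 of 20 higher (median 0.51), the complement list 1 of 8 (median 0.54) and the lysosome list 2 of 30 (median 0.31). The same lists had medians of 1.65, 1.75 and 1.97 at day 7, against the same sham library.

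Neuronal gene groups had medians close to or a little under 0 at day 1. Of 52 potassium channel genes, 5 were lower and none higher (9.62%, against 4.48% of all genes), with a median of -0.30. Kcnma1, the calcium-activated BK channel, was at 16.9 FPKM in sham and 7.08 at day 1 (-1.24), and Kcnj9, a G protein-gated channel subunit, at 35.3 and 17.0 (-1.05). Scn2a, the sodium channel of excitatory neurons, was at 40.6 and 18.9 (-1.10) and was the only one of 23 sodium and calcium channel genes past the call (median -0.26). With the length trend described next removed, the medians of these lists were -0.23 and -0.01.

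Few synaptic genes were past the call. None of 28 postsynaptic density genes was past it (median -0.26, or -0.13 with the length trend removed), with Shank1, a scaffold protein, at 68.3 FPKM in sham and 42.4 at day 1 (-0.69). None of 21 GABA genes was past the call either (median -0.17). Glutamate receptor genes had 1 of 26 higher, Grin2a, an NMDA receptor subunit, at 3.28 and 7.15 (1.10), with a median of -0.10, and Gria2, the AMPA receptor subunit that sets calcium permeability, was at 119 and 69.5 (-0.77). Stx1a, a syntaxin of vesicle fusion, was the 1 lower gene of 36 presynaptic genes, at 83.1 and 26.1 (-1.67). The 1 higher gene was Syn3, a synapsin, at 0.502 and 1.18 (1.09), whose ratio was -0.03 from shared events, and the median was -0.11, or -0.06 with the length trend removed. Stx1a was at 61.0, 67.9, 38.5 and 74.5 FPKM at days 3, 7, 14 and 28.

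Single neuronal genes were lower by more than their lists. The cortical neuron list had 2 of 21 lower and 1 higher, with a median of -0.16, or -0.04 with the length trend removed. Mef2c, a transcription factor of maturing cortical neurons, was at 59.8 FPKM in sham and 23.04 at day 1 (-1.37), and Rasgrf2, an upper-layer marker and Ras exchange factor, at 22.5 and 8.42 (-1.41). Reln, the secreted guide of migrating neurons made by interneurons, was at 8.36 and 1.95 (-2.05). Of 20 interneuron and neuropeptide genes compared, 1 was higher and 1 lower (5% each, near the shares over all genes), with a median of 0.16. Calb2, the calcium buffer calretinin, was at 10.8 and 27.3 (1.33). The peptide Cck was at 178 and 319 (0.84), short of the call. Of 19 myelin genes only Ugt8a, an enzyme of myelin lipid synthesis, was past the call, at 17.8 and 6.56 (-1.43). Of 12 oligodendrocyte precursor genes 2 were lower (median -0.39), Nkx2-2, not listed at day 1, and Sox6, whose ratio went from -3.21 to -0.66 with shared events.

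Transcript length moved with the ratio. Across 11771 genes with an annotated length, Spearman's rho between the log2 ratio and the longest annotated transcript was -0.25, a description over genes of the same pair of libraries. In the bin of genes with the shortest transcripts, of 10 bins of about equal size (median 923 nt) the median log2 ratio was 0.17, with 8.57% higher and 3.90% lower. In the bin with the longest (median 8456 nt) it was -0.26, with 2.97% higher and 8.84% lower. The trend ran through all 10 bins. Its part in the neuronal results, whose genes are often long, was not tested beyond the medians with the trend removed, and short genes such as those of cytosolic ribosomal proteins had a median of 0.35, which was 0.19 with the trend removed.

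**Figure D5:**
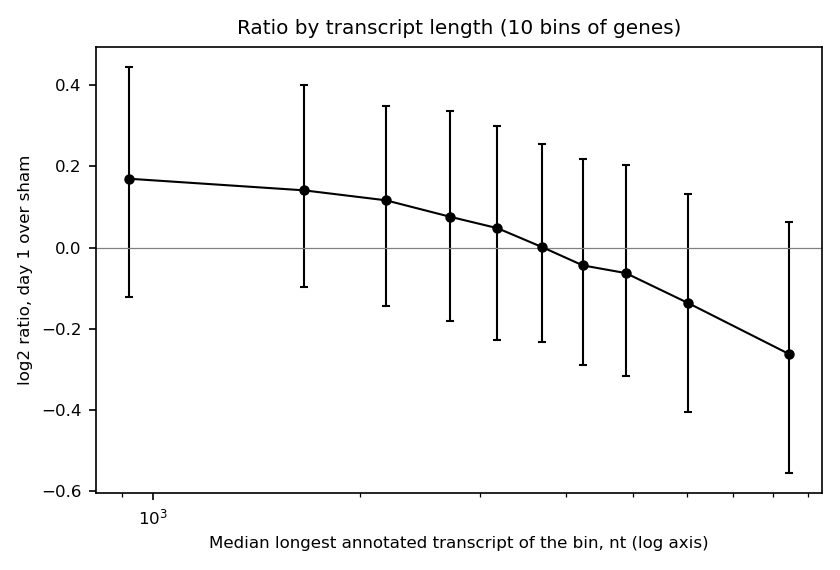
Median log2 ratio of day 1 over sham (points, vertical axis) in 10 bins of about equal numbers of genes ordered by longest annotated transcript (horizontal log axis, median length of the bin in nt), with bars from the 25th to the 75th percentile of the genes in a bin, which is no error of the median. The median goes from 0.17 in the shortest bin to -0.26 in the longest.

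Markers of other brain regions were examined, since the piece of tissue taken could differ between libraries. Of 11 hypothalamic genes compared, 9 were higher at day 1, of which 6 were not listed in sham and 1, Trh, was higher under every construction. Pmch, the precursor of melanin-concentrating hormone, was at 26.2 FPKM at day 1, Avp, of vasopressin, at 18.9, and Oxt, of oxytocin, at 9.28, and none of them was listed in sham. They were not particular to day 1, since Avp was at 4.24, 18.1, 11.7 and 3.01 FPKM at days 3, 7, 14 and 28. The hypothalamic transcription factor Sim1 and the peptides Agrp and Hcrt had no value in any library, while Cartpt, a peptide also made in the cortex, was at 7.83 and 8.89 (0.18). Summed over the 11, the level was 144 FPKM in sham and 208 at day 1. The list median was 3.88, and 0.48 from events listed in both libraries. The latter is the value of Hdc, as in the neutrophil list, so that this gene counts in both lists.

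Striatal markers had none of 13 past the call (median 0.03) and hippocampal markers 1 of 8 (median 0.27). Thalamic markers had 3 of 10 higher, with Tcf7l2, a transcription factor of the thalamus, at 0.815 FPKM in sham and 1.98 at day 1 (1.19). Choroid plexus markers had 1 of 14 higher (median 0.48), and Ttr, the transthyretin of that tissue, was at 279 and 450.1 (0.69). The globin gene Hbb-bs, of red blood cells, was at 117 and 97.6. With 1 library per group, a difference in dissection and a difference in condition cannot be told apart for these genes.

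Several of the most extreme values belong to genes whose listing or level changed widely from library to library. Ssc4d had the largest ratio of all genes listed in both libraries, at 0.0659 FPKM in sham and 98.1 at day 1, was at 55.0 at day 14, and was not listed at days 3, 7 and 28. Rpl41, a ribosomal protein gene, was at 179 in sham and 0.491 at day 1, and days 7 and 14 had 154 and 11.1. Tspyl4 was at 83.2 at day 1 and not listed in any other library. Atp5e, a subunit of ATP synthase, was at 14.8 in sham, 122 at day 1 and 14.3 at day 28. Tor1a, an ATPase of the nuclear envelope, was at 20.2, 0.204 and, at day 28, 19.0. Rin2, at 5.63 and 0.0956, had a log2 ratio of -4.87 as reported and 0.10 with summed ends. Of the 15 largest and the 15 smallest ratios of genes listed in both libraries, 12 each held under every construction.

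The largest loss in level was that of Apoe, the lipid carrier made by astrocytes and microglia, at 716 FPKM in sham and 287 at day 1 (-1.32). The 4 later libraries had 1386, 855, 3534 and 1212 FPKM in time order, so that day 1 was the lowest of the 6 libraries. Aldoc, another abundant astrocyte gene, was at 317 and 238 (-0.41).

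The genes called at day 1 were followed through the later libraries, which share the sham library with this comparison. The 602 higher genes had a median log2 ratio of 1.53 at day 1, and the medians of the 4 later libraries in time order were 1.08, 1.11, 1.21 and 0.74. Their value at day 1 was the highest of the 5 post-stroke libraries for 298 of them. The 528 lower genes had a median of -1.58, followed in time order by -0.24, -0.31, -0.76 and -0.38, and day 1 was the lowest of the 5 for 378. Since day 1 chose these genes, its own median is a description. The counts with day 1 as the extreme and the smaller later medians also depend in part on that choice. Of the 316 genes higher under every construction, 77 were past the call at day 1 and at no later day, a count that depends on the same choice. Over all genes compared in each later library, 8.54% were higher and 2.53% lower than sham on day 3, 8.53% and 2.12% on day 7, 8.97% and 6.92% on day 14, and 3.68% and 2.79% on day 28.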

How the data were processed

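RNA of the ipsilateral cortex, pooled from 3 mice per library, was sequenced as strand-specific poly(A) libraries with paired 150-base reads. The FPKM values were computed and deposited by the authors, 1 per event (transcript start, transcript end or splicing event). The submitters' processing notes name Trimmomatic 0.30, HISAT2 2.0.1, HTSeq 0.6.1 and mm10 without their roles, and the assembler is not given in the sources used here. Rows repeating an event were used once. Genes were taken by the deposited Ensembl identifier, and 15411 of 15441 matched GENCODE M21, which gave symbols, positions and lengths. The largest of the summed starts, the summed ends and any single event was used per gene, a choice made in earlier work after its ratios had been compared with the study's own results.

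Genes of at least 1 FPKM in either library were compared by log2 ratio with 0.1 FPKM added, and a ratio of at least 1 was the call. A gene not listed counted as 0 in calls and medians. No p-value was computed, since each group was 1 library. Members and the 52 gene lists were chosen with earlier results of these data known. Genes named are the 15 largest and 15 smallest ratios of genes listed in both libraries, the 15 highest of those not listed in sham or at day 1, the 10 largest gains and losses, and members of the lists, of which a selection is described. Motifs were searched on both strands of 300-base RefSeq promoter windows of GRCm38.p6, 1 window a gene, the one nearest to its annotated start. Python 3.11.15, numpy 2.4.6, pandas 2.3.3 and matplotlib 3.10.9 were used. Alternatives changed the gene value, the FPKM added, the filter, the threshold, the scaling and the length trend.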

Additional observations from a re-analysis of the deposited data

Results flagged for a closer look

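Loci that the files list without an Ensembl identifier were outside the comparison of genes. Of 145 such loci with at least 1 FPKM in either library, 30 were higher at day 1 (20.7%) and 34 were lower, and what they are was not examined. Apoe differed in direction between time points against the same sham library, its ratio (log2) being -1.32 at day 1 but 2.30 at day 14, and with 1 library at each time this difference was not tested.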

How the results depend on the processing

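No replicate could be left out, since each group was 1 library, and no paired analysis was possible because the labels give no replicate numbers. The 602 higher and 528 lower genes became 376 and 298 with 1 FPKM added, 1307 and 1142 with no filter, 241 and 150 with a filter at 5 FPKM, 1353 and 1320 at a ratio of 1.5, and 210 and 187 at a log2 threshold of 2. With summed starts 881 genes were lower. Under every construction the counts were 316 and 239, a setting chosen after seeing the data, as was the use of events listed in both libraries. Median ratio scaling gave 588 and 544, and upper quartile scaling 559 and 581. With the length trend removed the counts were 571 and 526. Among the named genes past the call, the sign was reversed for Rin2 (0.10 with summed ends and with the larger of both sums), Ascc3 (0.092 with summed ends), Adam19 (0.24 with shared events), Ssc4d (-0.73 with events inside the span) and Ndufa13 (7.54 with summed starts), and the cause was not tested. Below the call, summed ends also changed the sign of Actb (from 0.87 to -3.46), Mbp (from 0.36 to -0.37), Snord14e (from 0.44 to -0.033) and Kxd1 (from -0.43 to 0.71). Of the list medians, 642 recomputed values moved by less than 0.25 on the log2 scale and 44 by at least that, among them p53 genes (0.82 with summed ends), matrix genes (1.17 with no filter), interferon genes (0.21 with a filter at 5 FPKM) and hypothalamic genes (3.88 as reported, 1.38 with 1 FPKM added and 1.23 over genes listed in both libraries). The files give no depth, so no floor of detection can be set.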
